A study of Mus musculus with 18 samples.

Results

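The corticotropin-releasing hormone (CRH) stress peptide system was followed through 9 genes, taken by symbol from the 34932 genes measured: the peptide genes Crh, Ucn, Ucn2 and Ucn3, the receptor genes Crhr1 and Crhr2, the binding protein gene Crhbp, the hormone precursor gene Pomc and the melanocortin receptor gene Mc4r. Each of the 9 matched a single row. The study sequenced RNA from the brain, liver and testis of mice kept under chronic restraint stress, in which an animal is repeatedly held confined, and of control mice. Each tissue had 3 control and 3 stress libraries, described as biological replicates, so there were 18 libraries in 6 groups. The sample codes repeat the same numbers in every tissue, so the tissues may come from the same animals. The main tests between tissues did not use this. Strain, age and the length of restraint were not given in the sources used here. Each comparison of stress with control within a tissue asks how chronic restraint changes that tissue's transcripts.

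CRH is the hypothalamic peptide that starts the hormonal stress response: it acts on CRHR1 in the pituitary, where corticotrophs cleave the POMC protein into adrenocorticotropic hormone, which drives glucocorticoid secretion from the adrenal cortex. The urocortins are related peptides, of which urocortin 2 and urocortin 3 act mainly on CRHR2, and the CRH-binding protein holds CRH and urocortin away from the receptors. POMC also yields melanocyte-stimulating hormone, which acts on MC4R in brain circuits of feeding and energy balance.

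Library totals lay between 27.85 and 36.5 megacounts. Markers of brain regions differed between libraries of the same group. In CPM, counts scaled to the library total with TMM factors (trimmed mean of M values), the sums over 9 striatum markers were 188.8, 201.0 and 2922 in control replicates 1, 2 and 3 and 167.9, 414.3 and 1798 in the stress replicates. The sums over 15 hypothalamus markers in the same order were 6.07, 8.20 and 29.8 in control and 8.17, 30.8 and 49.3 in stress, and the sums over 10 choroid plexus markers were 8.31, 14.3 and 15.9 against 16.3, 532.1 and 355.0. Of single hypothalamus markers, Hcrt and Pmch reached 5.95 and 9.56 CPM in stress replicate 3 and at most 0.185 CPM in the other 5 libraries. The hypothalamus sum was mostly Trh (14.7 CPM) and Cartpt (11.3 CPM) in stress replicate 2. In control replicate 3 it was mostly Cartpt (22.7 CPM). Hippocampus is named in the extraction text of the labels, against brain in every sample label. The sums over 12 hippocampus markers were 644.2, 667.3 and 772.2 CPM in control and 664.4, 798.0 and 752.1 CPM in stress. Those over 9 cortex markers were 968.7, 789.0 and 585.7 CPM against 804.6, 553.6 and 555.5 CPM. The description of stress brain replicate 3 bears a code with the control prefix, although its title, treatment and data column say stress. Hormone genes of the pituitary were at or near 0 in brain: Prl and Cga, the genes of prolactin and of the common glycoprotein hormone subunit, had 0 counts in all 6 libraries, and Gh, the growth hormone gene, reached at most 0.0298 CPM. In a bulk library, fewer cells of a type and less RNA per cell cannot be told apart.

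Promoter sequences are shown for Pomc, whose order between brain and testis was the reverse of that of the other brain members, and for both receptor genes, whose brain levels were far apart. Each is the run of 250 bases before the RefSeq start, written 5′ to 3′ on the gene's strand, from RefSeq on GRCm38.p6. Pomc lies at chr12:3954695-3954944 on the plus strand, Crhr1 at chr11:104132531-104132780 on the plus strand and Crhr2 at chr6:55133017-55133266 on the minus strand. Capitals mark TATAAA, the TATA box.
Pomc: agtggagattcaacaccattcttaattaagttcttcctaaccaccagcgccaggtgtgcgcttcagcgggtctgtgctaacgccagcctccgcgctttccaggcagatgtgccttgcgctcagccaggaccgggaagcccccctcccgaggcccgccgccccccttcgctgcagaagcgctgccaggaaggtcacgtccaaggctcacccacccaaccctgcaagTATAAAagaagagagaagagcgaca
Crhr1: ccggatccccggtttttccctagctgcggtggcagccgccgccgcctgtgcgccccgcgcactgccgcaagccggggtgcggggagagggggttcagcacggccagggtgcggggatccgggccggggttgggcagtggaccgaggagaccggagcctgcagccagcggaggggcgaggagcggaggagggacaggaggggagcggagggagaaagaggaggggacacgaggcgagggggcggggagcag
Crhr2: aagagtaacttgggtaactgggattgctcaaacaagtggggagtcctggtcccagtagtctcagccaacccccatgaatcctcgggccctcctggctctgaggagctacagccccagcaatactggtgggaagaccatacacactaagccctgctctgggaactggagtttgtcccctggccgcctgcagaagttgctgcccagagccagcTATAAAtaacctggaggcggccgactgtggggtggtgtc
The Crhr1 promoter held 74.8% G and C, more than 95.8% of all promoters in the table, and 25 CpG dinucleotides. The median over all promoters was 52.4% G and C and 6 CpG. The Crhr2 promoter had 57.6% and 4 CpG, and the Pomc promoter 60.0% and 15 CpG. Both strands were searched for TATAAA, for the cAMP response element TGACGTCA, for AGAACA, a glucocorticoid receptor hexamer, and for AAAGGTCA, the Nur77 element. None of these letters overlapped another match in the members. TATAAA began at -25 in Pomc and at -39 in Crhr2, and 12.4% of 32851 promoters of this length hold it. Crhr1 held none of the 4. Of the 6 members with an entry in the table, Ucn alone held the cAMP response element, at -44, and the AGAACA hexamer on the other strand, at -54. These occur in 1.55% and 16.1% of all promoters, and AAAGGTCA in 1.34%.

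Most of the system was read in brain. Levels in TPM, which scale counts by gene length and library total, put the control brain levels in the order Crhbp, Crhr1, Crh, Pomc, Mc4r and Crhr2, with the 3 urocortin genes lowest. Crhbp (26.98 to 58.84 TPM) and Crhr1 (22.14 to 43.09 TPM) overlapped in their ranges. Crh (12.17 to 18.33 TPM), Pomc (4.60 to 6.36 TPM) and Mc4r (1.91 to 2.54 TPM) each lay apart from their neighbours. Crhr2 (0.763 to 1.40 TPM) overlapped Ucn (0 to 1.08 TPM) and Ucn2 (0 to 0.906 TPM), and Ucn3 reached only 0.123 TPM. In stress brain Crhbp was above Crhr1 and Crhr1 above Crh in every library, and Pomc and Mc4r overlapped, with Mc4r above Pomc in replicates 1 and 3. Ucn (1.99 and 3.69 TPM, on 10 and 18 counts) was above Crhr2 (1.65 and 1.72 TPM) in stress replicates 2 and 3.

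**Figure D1:**
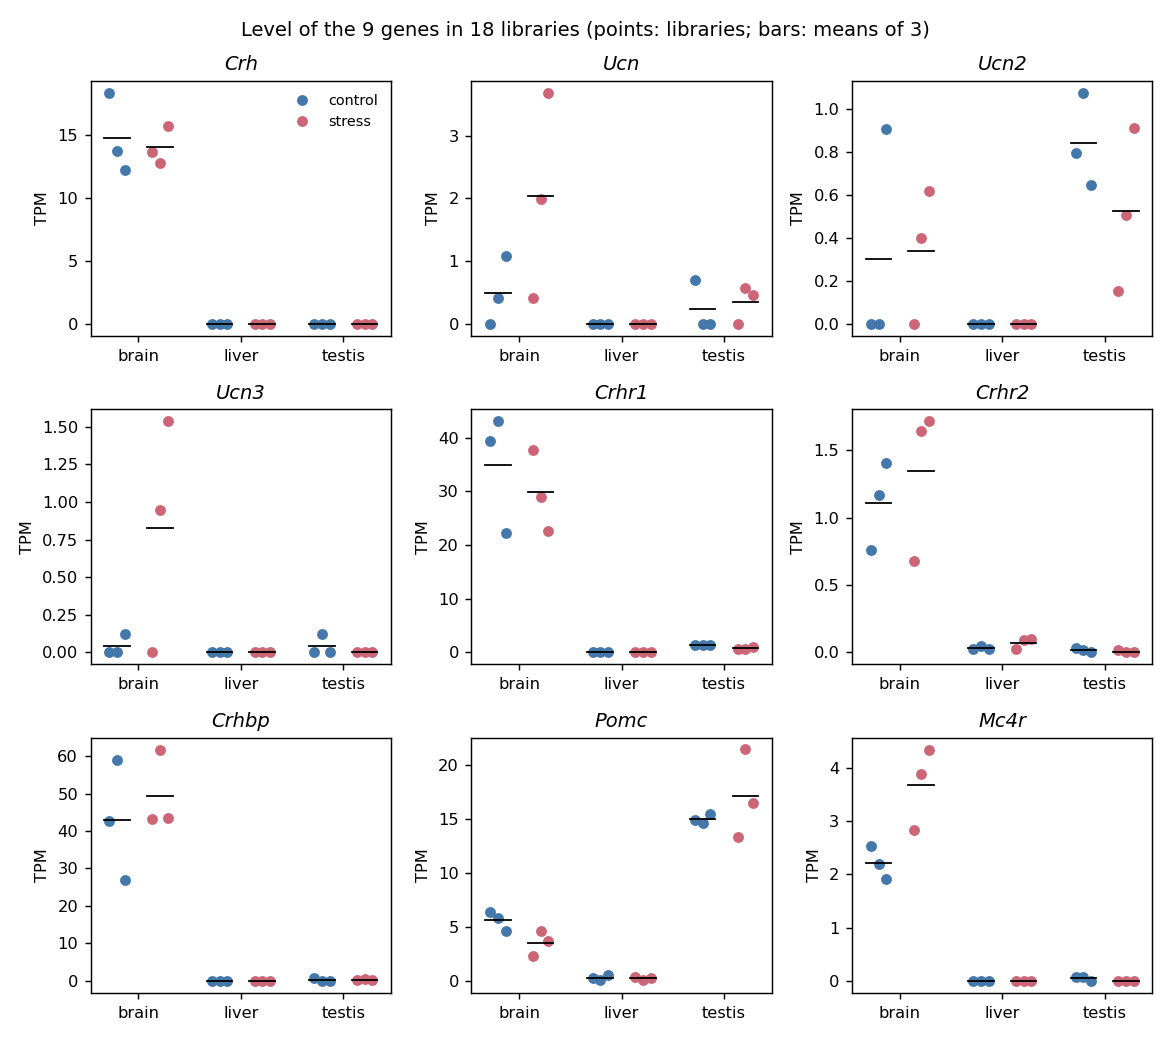
Level of each of the 9 genes in TPM (vertical axis, own scale for each gene) in brain, liver and testis, with a point for each control and stress library and a bar at each mean of 3. Crh, Crhr1, Crhbp and Mc4r are far higher in brain than elsewhere, while Pomc is highest in testis, at 13.4 to 21.4 TPM over its 6 libraries.

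Crh, which encodes the releasing peptide, had 18.3, 13.7 and 12.2 TPM in control brain and 13.7, 12.8 and 15.7 TPM in stress brain. The groups overlapped, and the highest library was a control. On the same CPM scale the means were 5.82 ± 1.22 CPM (SD, n = 3) in control and 5.48 ± 0.685 CPM (SD, n = 3) in stress, so the log2 fold change was -0.09 ± 0.20 (SE; edgeR adjusted p = 0.947). Without control brain replicate 1 the change was 0.10. No count fell on Crh in any liver or testis library, which allows up to 3 counts per library, or about 0.0892 CPM in control liver and 0.102 CPM in control testis. These floors, like the other limits on counts here, cover counting error only. Against them Crh was at least 65.0-fold higher in control brain than in liver and at least 56.7-fold higher than in testis.

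The urocortin genes had at most 22 counts in any library, and none passed the filter on low counts in any tissue. Ucn, which encodes urocortin, had 0, 2 and 6 counts in control brain and 2, 10 and 18 in stress brain. Ucn3, which encodes the CRHR2 ligand urocortin 3, had 0, 0 and 2 counts in control brain and 0, 14 and 22 in stress brain. For both genes stress replicates 2 and 3 were the highest libraries, and the groups overlapped. Those are also the libraries with the highest choroid plexus sums and the highest hypothalamus sums. The hypothalamus sum of stress replicate 2 (30.8 CPM) was close to that of control replicate 3 (29.8 CPM). The part of tissue content in these counts was not tested. With no filter on low counts the edgeR adjusted p was 0.799 for Ucn and 0.760 for Ucn3. Ucn2, the gene of urocortin 2, had 0, 0 and 10 counts in control brain and 0, 4 and 6 in stress brain. In testis it had counts in every library, 9, 12 and 8 in control and 2, 7 and 12 in stress.

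Crhr1, the receptor gene through which CRH drives corticotrophs, had the most counts of the set summed over all brain libraries, 4711 against 4605 for Crhbp. In stress brain alone Crhbp had more, 2437 against 2131. The Crhr1 levels were 39.3, 43.1 and 22.1 TPM in control and 37.7, 29.0 and 22.7 TPM in stress. The lowest library of each group was replicate 3, the pair with the highest striatum sums, and the groups overlapped. Cortex sums were lowest in control replicate 3 and stress replicates 2 and 3. The part of region content in the Crhr1 levels was not tested. The log2 fold change was -0.24 ± 0.26 (SE; edgeR adjusted p = 0.864). Crhr2, the receptor of the urocortins, had 0.763, 1.17 and 1.40 TPM in control and 0.680, 1.65 and 1.72 TPM in stress. Replicate 1 was the lowest library in both groups, and the log2 fold change was 0.26 ± 0.41 (SE; edgeR adjusted p = 0.919).

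Crhr1 therefore supplied most receptor transcript in every brain library. Its share of the summed Crhr1 and Crhr2 TPM was 98.1%, 97.4% and 94.0% in control and 98.2%, 94.6% and 93.0% in stress. The means were 96.5% ± 2.16 and 95.3% ± 2.69 (SD, n = 3 each), which differed by less than the spread between replicates (two-sided exact permutation p = 0.7, where 3 against 3 can give no less than 0.1). Over the 6 brain libraries Crhr1 and Crhr2 had a Pearson correlation of -0.77, given as a description of libraries that differ in region content.

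Crhbp, the gene of the secreted protein that binds CRH, had 42.6, 58.8 and 27.0 TPM in control brain and 43.1, 61.7 and 43.4 TPM in stress brain. Replicate 2 was the highest library in both groups and the lowest was control replicate 3. The log2 fold change was 0.19 ± 0.26 (SE; edgeR adjusted p = 0.895), and it was -0.042 without control brain replicate 3. Crhbp exceeded Crh in all 6 libraries. The log2 ratio of Crhbp to Crh TPM was 1.22, 2.10 and 1.15 in control and 1.66, 2.28 and 1.47 in stress. The means were 1.49 ± 0.53 and 1.80 ± 0.42 (SD, n = 3 each), and the groups overlapped (two-sided exact permutation p = 0.5). Libraries of the same replicate number were also set in pairs, although the labels name no pairs and the pairing was read from these data. Within them the ratio was higher in stress in 3 of 3, by 0.44, 0.18 and 0.33. The exact permutation p within pairs was 0.25, the smallest that 3 pairs can give. In testis Crhbp was uneven, with 14, 0 and 0 counts in control and 7, 12 and 2 in stress.

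**Figure D2:**
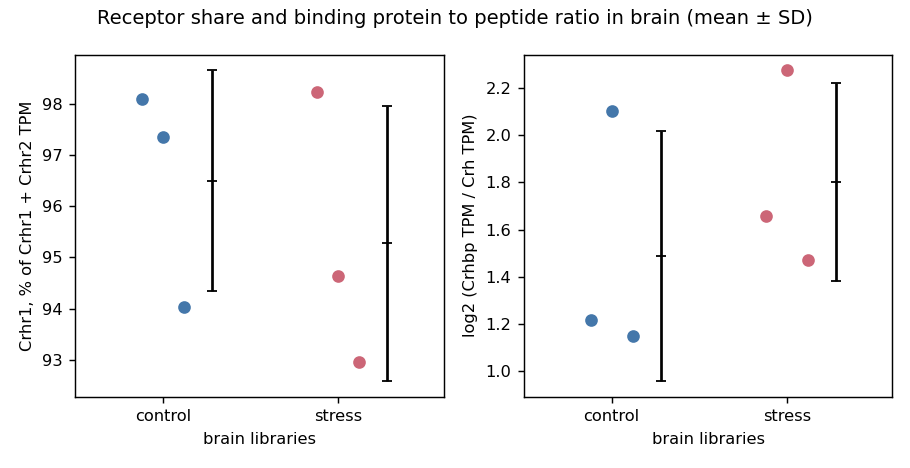
Crhr1 share of summed receptor TPM in percent (left) and log2 ratio of Crhbp to Crh TPM (right) in the 3 control and 3 stress brain libraries, shown as points with mean ± SD. Control and stress points overlap in both, with mean shares of 96.5% and 95.3% and mean log2 ratios of 1.49 and 1.80.

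Pomc and Mc4r were the members whose control and stress brain libraries did not overlap. They were 2 of the 6 members tested, beside 13.8% of all 17668 genes tested in brain. Pomc, the precursor gene, had 6.36, 5.82 and 4.60 TPM in control and 2.30, 4.58 and 3.69 TPM in stress. Every stress library was below every control library, by the narrowest margin between stress replicate 2 and control replicate 3. These values rest on 51 to 64 counts in control and 22 to 46 in stress. The means were 1.68 ± 0.249 CPM in control and 1.05 ± 0.333 CPM in stress (SD, n = 3 each), and the log2 fold change was -0.68 ± 0.32 (SE; edgeR unadjusted p = 0.0691, adjusted p = 0.690). Over 13 alternatives the change lay between -0.89 and -0.45, with adjusted p from 0.486 to 0.974. Pomc was lowest in stress replicate 1, whose hypothalamus sum was 8.17 CPM, against 6.07 and 8.20 CPM in control replicates 1 and 2. These sums differed in makeup, with Trh at 3.26 CPM against 0.685 and 0.987 CPM. Tbx19, which encodes a factor of corticotrophs, reached 0.0595 CPM at most in the 6 libraries. The part of region content in the Pomc difference was not tested.

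Mc4r, the melanocortin receptor gene, had 2.54, 2.20 and 1.91 TPM in control brain and 2.83, 3.89 and 4.35 TPM in stress brain. Every stress library was above every control library. The means were 1.83 ± 0.240 CPM in control and 3.01 ± 0.662 CPM in stress (SD, n = 3 each), from 58 to 70 and 74 to 116 counts. The log2 fold change of 0.72 ± 0.25 (SE) had an unadjusted edgeR p of 0.0209 and an adjusted p of 0.602. It lay between 0.48 and 0.88 over 13 alternatives, with adjusted p from 0.373 to 1.0, and the lowest value came from leaving out both brain libraries numbered 3. The highest Mc4r libraries were stress replicates 2 and 3, which also had the highest hypothalamus and choroid plexus sums. Control replicate 3, with the third highest hypothalamus sum, which was mostly Cartpt, had the lowest Mc4r. The part of region content in this difference was not tested.

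**Figure D3:**
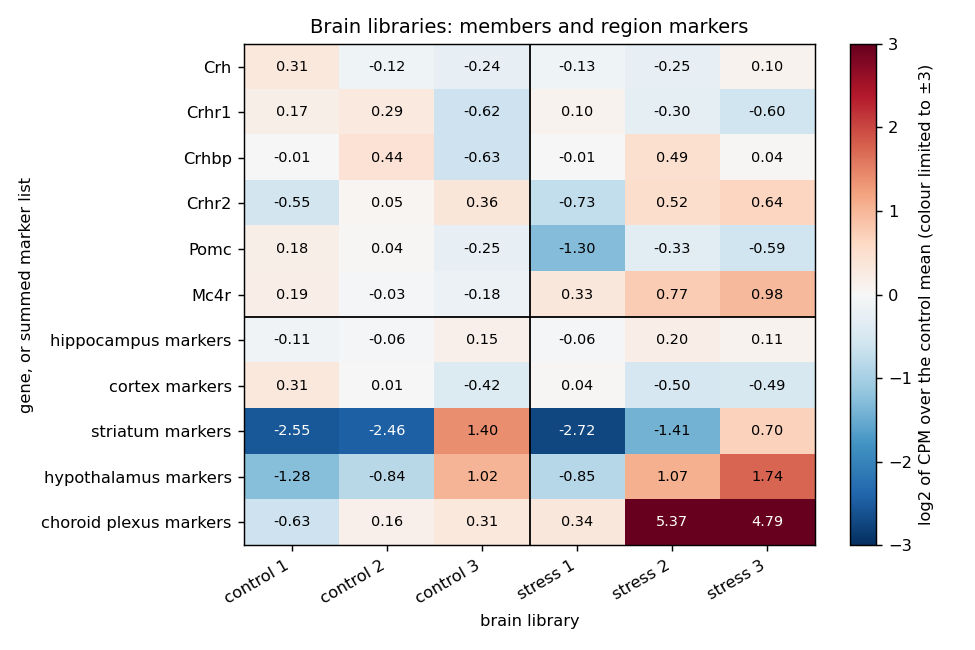
Members and summed region marker lists (rows) in the 6 brain libraries (columns), coloured by the log2 of CPM over the control mean, with colour limited to ±3. Mc4r is above its control mean in all 3 stress libraries (0.33, 0.77 and 0.98) and Pomc below it (-1.3, -0.33 and -0.59), while striatum markers are high in replicate 3 of both groups.

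No member passed an adjusted p of 0.05 for stress against control in any tissue. In brain 0 of the 6 members tested were called by edgeR, where 0.00566% of all genes tested (1 gene) were called. At an unadjusted p under 0.05 the count was 1, Mc4r, against 7.54% of all genes. DESeq2, which called more brain genes than edgeR, also called 0 members and gave Mc4r an unadjusted p of 0.0154. The DESeq2 shares over all genes are not given here. Without stress brain replicate 3, the library with the differing code, the log2 fold changes were 0.57 for Mc4r, -0.73 for Pomc, -0.19 for Crh, 0.27 for Crhbp, -0.09 for Crhr1 and 0.03 for Crhr2, and no member was called. Brain libraries of the same number resembled each other across treatments, although the labels name no pairs. With the replicate number as a block 22 brain genes were called, 17 higher and 5 lower, none of them a member. In testis 0 of 2 members tested were called by edgeR, beside 0.0201% of all genes, and 1, Crhr1, had an unadjusted p under 0.05, as did 11.7% of all genes. DESeq2, which also called more testis genes than edgeR, called 0 members there and gave Crhr1 an unadjusted p of 0.0697. In liver no member passed the filter, so none was tested, while 1.63% of the genes tested there were called.

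**Figure D4:**
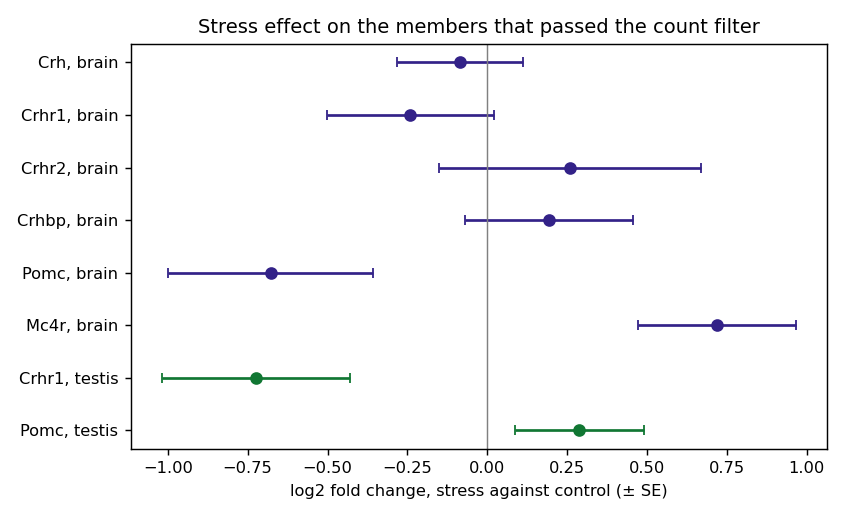
Log2 fold change of stress against control (horizontal axis, point ± SE from edgeR) for the 6 members tested in brain and the 2 tested in testis. The intervals of Pomc (-0.68 ± 0.32) and Mc4r (0.72 ± 0.25) in brain and of Crhr1 (-0.72 ± 0.29) and Pomc (0.29 ± 0.20) in testis lie to one side of 0, and none of the 8 passed the adjusted threshold.

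Testis was the tissue where Pomc was highest. Pomc had 14.9, 14.6 and 15.4 TPM in control testis and 13.4, 21.4 and 16.5 TPM in stress testis, from 164 to 297 counts. The stress libraries lay on both sides of the control libraries, and replicate 2 stood highest. The log2 fold change was 0.29 ± 0.20 (SE; edgeR adjusted p = 0.542), and 0.03 without stress testis replicate 2. That library also had the highest macrophage sum, 100.1 CPM against 67.6 to 71.5 CPM in the other 5, and the highest Sertoli cell sum, 231.0 CPM against 162.6 to 170.5 CPM. Its sum over 7 Leydig cell markers was highest too, 471.5 CPM against 317.8 to 383.1 CPM, through Insl3 alone, at 271.4 CPM against 61.6 to 106.2 CPM. Over the other 6 Leydig markers its sum was the lowest of the 6 libraries, 200.1 CPM against 211.6 to 318.8 CPM. Of these markers only Cyp17a1 (60.6 CPM against 97.25 to 134.5 CPM) and Lhcgr (0.757 CPM against 1.58 to 3.93 CPM) were lowest there. Star, Cyp11a1, Hsd3b1 and Hsd17b3 were not. The part of these cells in the Pomc level was not tested. Part of every testis TPM total was taken by Gm23935, a short RNA gene with 2.73% to 16.75% of all testis TPM but at most 0.46% of counts. On the CPM scale Pomc was 6.07 ± 0.121 in control and 7.41 ± 2.06 in stress (SD, n = 3 each).

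Crhr1 was the other member measurable in testis, with 37, 35 and 39 counts in control and 21, 20 and 32 in stress. As TMM-scaled CPM these were 1.34, 1.27 and 1.25 against 0.706, 0.658 and 0.955, so all stress libraries were below all control libraries. It was 1 of the 2 members tested whose groups did not overlap, beside 20.9% of all genes tested in testis. The log2 fold change was -0.72 ± 0.29 (SE; edgeR unadjusted p = 0.0353, adjusted p = 0.422), and from -0.91 to -0.62 over 12 alternatives. The Leydig cell markers of the same libraries moved in both directions: none of the 7 was called, and at an unadjusted edgeR p under 0.05 there were 1 higher and 3 lower. Insl3, a Leydig cell peptide hormone gene, had 79.8, 77.7 and 61.6 CPM in control and 106.2, 271.4 and 86.2 CPM in stress. Lhcgr, the luteinizing hormone receptor gene, had 3.75, 3.47 and 3.93 CPM in control and 1.58, 0.757 and 2.06 CPM in stress. The sum over all 7 overlapped between groups, and the sum without Insl3, left out after its values were seen, was 288.9 to 318.8 CPM in control and 200.1 to 251.9 CPM in stress. Of the markers in that sum, Cyp11a1, Hsd3b1 and Hsd17b3 overlapped between groups, while Star, Cyp17a1 and Lhcgr were lower in every stress library. The part of Leydig cell content was not tested. Mc4r (2, 2 and 0 counts in control, 0 in all stress libraries), Crhr2 (2, 1 and 0 against 1, 0 and 0), Ucn (4, 0 and 0 against 0, 4 and 3) and Ucn3 (0, 2 and 0 against 0 in all) were at or near the floor in testis.

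Liver held almost none of the system. Of the 9 members, 7 had 0 counts in all 6 liver libraries. Crhr2 had 2, 4 and 2 counts in control and 2, 8 and 8 in stress, and Pomc had 4, 2 and 8 in control and 6, 2 and 4 in stress. With no filter on low counts the edgeR log2 fold changes were 1.21 for Crhr2 (unadjusted p = 0.305) and -0.14 for Pomc (unadjusted p = 0.906).

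Control libraries were compared between tissues to place each member. A member that reached the filter only through 1 of the tissues compared had to differ, so those values are a description. In control brain Crhr1 was at least 286-fold higher than in liver and Crhbp at least 241-fold higher, each against a floor of 3 counts per library, and Mc4r was at least 20.4-fold higher. Crhr2 had 39 to 79 counts in the control brain libraries, against 2 to 4 in liver and 0 to 2 in testis. Mc4r had 58 to 70 counts in brain against 0 to 2 in testis, and Crhbp 501 to 948 against 14, 0 and 0. No fold is given for these, since the lower group was near or under the floor or rested on 1 library. Crhr1 and Pomc passed in both brain and testis. On CPM by library size alone Crhr1 was 20.3-fold higher in brain, and its fitted log2 fold change with TMM factors was 4.03 ± 0.27 (SE; edgeR adjusted p = 7.13e-07). Pomc was 3.55-fold higher in testis by library size alone, and its fitted log2 fold change for brain over testis was -2.13 ± 0.20 (SE; edgeR adjusted p = 8.05e-06), and -1.42 on the log2(TPM + 0.1) scale. The direction was thus opposite for the peptide precursor and the receptor on either scale. Of all genes tested between these tissues 88.1% were called, with the median at -0.20, or 0.49 on the TPM scale, and the share of calls that were higher in brain went from 46.7% to 56.7%. Between control brain and liver 80.1% were called, with 57.0% of the calls higher in brain, or 84.4% on the TPM scale, where the median moved from 0.33 to 2.08. For liver against testis 88.5% were called, with the median at -0.93 or -1.92 and 39.0% or 25.4% of the calls higher in liver. Pomc reached the filter for liver against testis only through testis, with 4, 2 and 8 counts in control liver against 164 to 192 in control testis. Its log2 fold change there, -4.65, and -5.27 without control liver replicate 3, is therefore a description.

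The fitted log2 change of Pomc was -0.68 in brain and 0.29 in testis, where it was 0.03 without stress testis replicate 2. The difference, brain minus testis, was -0.97 ± 0.38 on the log2 scale (SE; edgeR interaction test, unadjusted p = 0.0241, adjusted p = 0.501), which did not pass the threshold. With libraries of the same treatment and number taken as a block, the Pomc difference was -0.98 (edgeR adjusted p = 0.82). For Crhr1 the difference was 0.47 ± 0.39 (SE; edgeR adjusted p = 0.716). In this comparison edgeR called 0 members and 0% of 22391 genes, with 9.43% of genes at an unadjusted p under 0.05, and DESeq2 called 0 members. By edgeR the members at that unadjusted level were 2, Pomc and Mc4r, and Mc4r had no more than 2 counts in any testis library. DESeq2 gave these an unadjusted p of 0.0135 and 0.0105, without a share over all genes to set beside them.

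Genes that act with the members were read from 4 pathway lists. Of 9 genes that process POMC or help to, all 9 were tested in brain and 0 were called, with a median log2 fold change of 0.09 against -0.003 over all genes. Pcsk2, the convertase that cuts POMC products to melanocyte-stimulating hormone, had 350.3 ± 14.9 CPM in control brain and 271.3 ± 22.1 CPM in stress brain (SD, n = 3 each; edgeR log2 fold change -0.37, adjusted p = 0.407), and DESeq2 gave it an adjusted p of 0.0244. Furin, another convertase, stood 0.22 higher on the log2 scale (edgeR adjusted p = 0.613). In liver 5 and in testis 9 of these genes were tested and 0 called. Pcsk1n, the proSAAS gene, had 7.07 ± 0.685 CPM in control testis and 14.5 ± 8.67 CPM in stress testis (SD, n = 3 each; edgeR adjusted p = 0.422). Its log2 fold change of 1.04 fell as low as 0.43 over the alternatives. The sum of the list was 152.4, 238.7 and 149.5 CPM in stress testis replicates 1, 2 and 3, against 136.2 to 143.3 CPM in control testis.

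Among 11 melanocortin receptor and modulator genes, 10 were in the table, and 7 in brain, 4 in liver and 6 in testis were tested. The 1 call was Sdc3 in liver, the syndecan 3 gene, 1 of 4 beside 1.63% of all liver genes tested. Sdc3 rose there from 10.3 ± 0.769 to 17.1 ± 1.16 CPM (SD, n = 3 each; log2 fold change 0.74, edgeR adjusted p = 0.0410). Its changes in brain (0.25, edgeR adjusted p = 0.679) and testis (edgeR adjusted p = 0.422) did not pass. List medians were 0.162 in brain, 0.109 in liver and 0.09 in testis, against -0.003, -0.009 and 0.014 over all genes.

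The CRH receptor signalling list held 34 genes of the cAMP route and its partners, of which 34 were tested in brain, 30 in liver and 33 in testis. Called genes were 0 in brain and testis and 2 in liver, both higher, 2 of 30 beside 1.63% of all liver genes tested. Rapgef4, the gene of the cAMP sensor EPAC2, rose from 88.1 ± 26.0 to 199.4 ± 25.4 CPM (SD, n = 3 each; log2 fold change 1.18, edgeR adjusted p = 0.0352). Arrb2, the beta-arrestin 2 gene, rose from 12.4 ± 2.30 to 21.8 ± 1.91 CPM (log2 fold change 0.81, edgeR adjusted p = 0.0476). In brain Arrb2 had a change of 0.30 (edgeR adjusted p = 0.530). The list medians were 0.034 in brain, -0.083 in liver and 0.005 in testis, against -0.003, -0.009 and 0.014 over all genes.

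The 18 partners of the stress axis had 10 tested genes in brain, 7 in liver and 9 in testis. The 1 call was again in liver, 1 of 7 beside 1.63% of all liver genes tested. There Fkbp5, whose protein binds the glucocorticoid receptor complex as a co-chaperone, went up from 14.4 ± 3.01 to 45.7 ± 12.2 CPM (SD, n = 3 each; log2 fold change 1.67, edgeR adjusted p = 0.0108). In brain its change of 0.86 had an edgeR adjusted p of 0.385, and 0.0120 with the replicate block, while DESeq2 gave 0.000298. Star, which carries cholesterol into mitochondria for steroid synthesis, had 77.6 ± 25.1 CPM in control testis and 41.2 ± 7.31 CPM in stress testis (SD, n = 3 each; edgeR adjusted p = 0.422), and DESeq2 gave 0.00765. Oxtr, the oxytocin receptor gene, had 6.66 ± 0.377 and 3.91 ± 0.919 CPM there (edgeR adjusted p = 0.422). The list medians were 0.046 in brain, -0.087 in liver and -0.118 in testis, against -0.003, -0.009 and 0.014 over all genes.

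Of the 4 liver calls, Fkbp5 passed under all 12 alternatives. The adjusted p of Sdc3 and Arrb2 exceeded 0.05 on the TPM scale and when any liver library other than control replicate 1 was left out, up to 0.125 and 0.146. That of Rapgef4 did so on the TPM scale and without control replicate 2, stress replicate 1 or stress replicate 3, up to 0.128. The summed markers of macrophages in the same libraries were 60.5 to 70.5 CPM in control liver and 122.0 to 145.0 CPM in stress liver, and their part in these changes was not tested.

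For each member the genes with the most similar course over 6 libraries of its highest tissue were taken by Pearson correlation of log2 CPM, among 13599 genes in brain and 14064 in testis. With only 6 libraries, which differ in region content in brain, these values are a description. Crh went most closely with Cacng3 (0.991), Tmem9b (0.988) and Dmc1 (0.984), and Crhr1 with Pura (0.997), Pex5l (0.995) and Eif4g3 (0.993). Crhr2 went with Abi1 (0.989), Hddc2 (0.988) and Pnrc2 (0.988), and Crhbp with Grhl1 (0.997), Nim1k (0.995) and Car5b (0.993). Mc4r went with Rwdd4a (0.996), Thap11 (0.991) and Nop16 (0.99). Pomc in testis went with Bicra (0.998), Lrp10 (0.997) and Ywhah (0.996), each of which was highest in stress replicate 2, as Pomc was. The 3 urocortin genes were below a mean of 1 CPM and were given no such genes. No member tracked another closely: between members in brain the correlations ran from -0.77 to 0.49.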

How the data were processed

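The deposited table holds raw counts, TPM and FPKM for each gene and library. The counts were deposited by the authors as whole numbers without normalization. The deposited TPM and FPKM were each derived from those counts by the authors with 1 length per gene, as the values show. Per the submitters' processing notes the genome build was mm39. The aligner, counting program, strand setting and annotation were not given in the sources used here. Even numbers made up 59% to 71% of counts from 1 to 20, and whether both mates of a fragment were counted is not known. Symbols came from GENCODE M21 (GRCm38) by identifier for 34362 genes, and promoters from RefSeq (GRCm38.p6).

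Counts were tested with edgeR 4.0.16 in R 4.3.3 (TMM, default filter with a minimum count of 10, quasi-likelihood test), each tissue alone, interactions over 12 libraries, with Benjamini-Hochberg adjustment over all genes tested and a threshold of 0.05. SE is the fold change over the root of its F value. CPM used TMM factors, and folds between tissues and floors used library size alone. Alternatives were no filter, DESeq2 1.42.0, edgeR with DESeq2 size factors, limma 3.58.1 on log2(TPM + 0.1), the replicate block, a fit over 18 libraries and each library left out. The 6 promoter entries matched by symbol. Correlations of deviations between control and stress libraries of the same number were 0.305, 0.167 and 0.439 in brain, so the block stands beside brain counts; the pairing is read from the data, since the labels name no pairs. In liver (0.187, 0.053 and -0.001) and testis (0.077, 0.068 and -0.088) they gave no pairing. The edgeR fits were tested on simulated data. All 9 members and, of each pathway list, every called gene or else those with the smallest p were named, and 3 nearest genes per member. Members and lists were chosen with earlier results of these data known. Replicate pairs differed by more than counting error. The summed pituitary markers are not reported here.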

Additional observations from a re-analysis of the deposited data

How the results depend on the processing

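The count of members called for stress, in a tissue or between tissues, was 0 in 82 of 82 alternatives. Some could give only 0, since in liver only the fits with no filter and over 18 libraries held any member. Members at 0 counts in liver also had no change there to compare with another tissue. Of 102 alternative fold changes of members for stress within a tissue 100 kept their direction and their side of the threshold. So did 30 of 30 for Crhr1 and Pomc in brain minus testis. Other members averaged under 10 counts in a tissue, and their differences between tissues were not read. The 2 that changed direction were Crh in brain, 0.10 without control brain replicate 1, and Crhbp in brain, -0.042 without control brain replicate 3; with each library left out they ran from -0.19 to 0.10 and from -0.042 to 0.48. Counts over all genes moved more. In brain, 1 gene was called by edgeR, against 137 by DESeq2, 2 with no filter on low counts, 22 with the replicate block, 3 in the fit over 18 libraries, 2 without both brain libraries numbered 3 (chosen after seeing the data), and 0 to 1 with each library left out. In liver the count was 232, against 856 by DESeq2, 858 with no filter, 129 on the TPM scale, 475 with the replicate block, 892 in the fit over 18 libraries and 31 to 291 with each library left out. In testis it was 4, against 61, 25 and 0 by DESeq2, with no filter and on the TPM scale, and 0 to 21 with each library left out. The causes were not tested. The replicate block changed no call of a member. With each library left out the difference in Crhr1 share, -1.23 percentage points, lay between -2.71 and -0.0739, and that in the log2 ratio of Crhbp to Crh, 0.31, between 0.08 and 0.62. Pairing by replicate number, which the labels do not name as pairs, leaves both differences as they are by construction. Within pairs the exact permutation p was 0.5 and 0.25, where 0.25 is the smallest possible. Depth limits the urocortin genes, all members in liver, and Pomc and Mc4r in brain, which rest on 22 to 116 counts a library.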
